A study of Mus musculus with 148 samples.

Results

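The data described here are 8 RNA-seq libraries, of the 148 samples of the series, from mouse embryonic stem cells kept for 3 days in differentiation medium. They comprise ChrRNA-seq libraries of 3 *Lbr* null clones, named 4C7A, 4C8E and 4F9F, sampled without (NoDox) and with (Dox) induction of Xist RNA. The same deposited table carries an unreplicated WT pair of a NoDox and a Dox library, titled mRNA. They were chosen as every allelic-ratio column of that table, and all 517 of its genes, which lie on chromosome 3, were used. The study removes factors that may act with Xist RNA and measures how far a chromosome can then still be silenced.

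Xist is the long non-coding RNA that coats the future inactive X chromosome of female mammals and silences the genes on it. LBR, the lamin B receptor, is a protein of the inner nuclear membrane that holds heterochromatin at the nuclear lamina through B-type lamins and HP1, and it is also a sterol reductase. Xist RNA has been described as binding LBR, a contact proposed to bring the coated chromosome to the lamina, and silencing without LBR is the question these clones address.

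All 8 libraries come from the iXist-Chr3 line (P4D7F4), male cells of 129S X Cast background in which a multicopy transgene for full-length Xist sits at a random site on the Cast chromosome 3. A TetOn promoter drives the transgene, and doxycycline (Dox) at 1.0 to 1.5 µg/mL turns it on. Dox libraries are titled 3 days, although the growth protocol gives 24 hours for every sample, and the titles were followed. The *Lbr* null clones were made with CRISPR/Cas9 from this line, and the WT cells carry the same transgene with *Lbr* intact. The labels place the cells on mitomycin-inactivated fibroblast feeders, and the WT pair is titled mRNA although its protocol is that of chromatin-associated RNA. The model is limited to 1 integration site on an autosome, each clone gives 1 library per condition, and the WT pair has no replicate.

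The allelic ratio is the fraction of a gene's allele-specific reads that come from the Cast chromosome, which carries the transgene. It runs from 0 to 1, equal expression of the alleles gives 0.5, and a silenced Cast allele brings it towards 0. Silencing, written z, is the Dox ratio minus the NoDox ratio within a clone, so that more negative values mean more silencing. The authors' classes are used: high silencing below -0.2, low silencing from -0.2 to -0.05, and weak or no silencing above -0.05. The authors listed genes with at least 10 reads over allelic differences, and the number of reads behind each ratio is unknown, so precision is judged from the spread between clones.

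The guide RNAs used against *Lbr* flank most of the gene. They are shown because they define what the clones are expected to lack, with the genomic PAM in capitals after each guide.

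LBR_gRNA1: atgatgttgaattcgtatacAGG

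LBR_gRNA2: gcctaccttatgagcgggttGGG

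Each guide has 20 bases and 1 exact match on chromosome 1 (GRCm38.p6), both on the minus strand, which is also the strand of *Lbr* (chr1:181815315-181842401). The match of LBR_gRNA1 at chr1:181843759-181843778 lies 1358 bases upstream of the gene, and that of LBR_gRNA2 at chr1:181817142-181817161 lies in intron 13. The expected cuts are 26.6 kb apart, with exons 1 to 13 of 14 and no other RefSeq gene between them. Because *Lbr* is on chromosome 1, the chromosome 3 ratios cannot show whether the clones lack it. The study describes the entire locus as deleted. For its *Lbr* mutant lines it reports loss of the wild-type Southern blot fragment and of sequencing reads over the gene.

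Chromosome 3 was silenced in every *Lbr* null clone. Before induction the alleles were close to balance, with median ratios over the 517 genes of 0.469 in 4C7A, 0.468 in 4C8E and 0.472 in 4F9F. With Dox the medians were 0.255, 0.253 and 0.264 in the same order. All 3 Dox medians lay far below all 3 NoDox medians, and the upper quartile of every Dox library, at most 0.365, lay below the lower quartile of every NoDox library, at least 0.414. Median z was -0.195 in 4C7A, -0.192 in 4C8E and -0.197 in 4F9F, a mean of -0.194 ± 0.00248 (SD, n = 3). An exact two-sided sign-flip test over the clones gave p = 0.25, the smallest that 3 pairs allow. In the WT pair the median ratio was 0.469 without Dox and 0.249 with Dox, and median z was -0.2004. The relative loss of the ratio, 1 minus the Dox ratio over the NoDox ratio, had a median of 0.446 ± 0.00531 (SD, n = 3) in the clones and 0.459 in the WT pair.

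**Figure D1:**
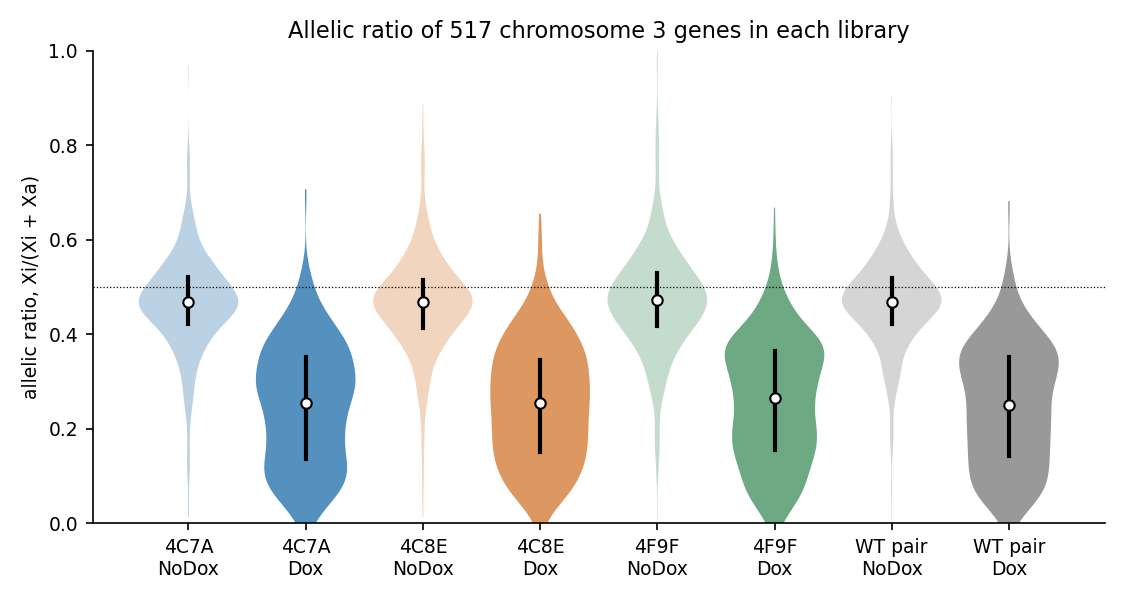
Allelic ratio (fraction, vertical axis) of the 517 genes in each of the 8 libraries, NoDox and Dox side by side for each clone and the WT pair; violins show the genes, white dots the medians, black bars the quartiles and the dotted line a ratio of 0.5. NoDox medians sit near 0.47 and Dox medians between 0.249 and 0.264.

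Silencing reached most genes of the chromosome. By limma, paired by clone, 465 of 517 genes (89.9%) were silenced at a Benjamini-Hochberg adjusted p under 0.05, and 0 genes rose, also at an unadjusted p under 0.05, where 470 were lower with Dox. The Dox ratio was below the NoDox ratio in all 3 clones for 493 genes, in 2 clones for 20, in 1 clone for 3 and in no clone for 1, *Tsacc*. By mean z, 247 genes (47.8%) were highly silenced, 240 had low silencing and 30 (5.8%) had weak or no silencing. The WT pair put 259, 232 and 26 genes in these classes. The class was the same in every clone for 332 genes (64.2%), of which 190 were high, 134 low and 8 weak, while 18 genes were high in 1 clone and weak in another.

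For some genes the ratio with Dox was close to 0. The Dox ratio was below 0.1 in all 3 clones for 42 genes and below 0.05 in all 3 for 6 genes, which were picked out after their values were seen. These are *Vav3*, a guanine nucleotide exchange factor, *Synpo2*, an actin-binding protein, *Ugt8a*, which makes galactosylceramide, *Ank2*, the ankyrin that ties membrane proteins to the cytoskeleton, *Arhgef38* and *Bmpr1b*, a BMP receptor. *Arhgef38* differs from the other genes in that its mean NoDox ratio was already 0.00930, so that its z could not go far below 0. Relative loss of the mean ratio exceeded 0.5 for 221 genes (42.7%) and 0.9 for 8 genes, and it stayed below 0.1 for 22.

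Some of the genes with the most negative mean z ended at low ratios. A z this low requires a high starting ratio. *Fstl5*, a secreted follistatin-like protein (chr3:76074561-76710005, mm10), had NoDox ratios of 0.784, 0.756 and 0.788 in 4C7A, 4C8E and 4F9F and Dox ratios of 0.0167, 0.176 and 0.0455. All 3 Dox values were far below all 3 NoDox values, with 4C8E retaining the most. Mean z of *Fstl5* was -0.696 ± 0.102 (SD, n = 3, limma adjusted p = 0.000430), beside -0.689 in the WT pair. *Sycp1*, a component of the synaptonemal complex of meiosis, went from 0.739, 0.773 and 0.806 to 0.130, 0.210 and 0.2, with mean z of -0.593 ± 0.0255 and -0.601 in the WT pair. *Ank2* lies 1.12 Mb from the transgene and gave nearly the same values in each clone, 0.590, 0.590 and 0.579 without Dox and 0.0275, 0.0196 and 0.0193 with it. Its mean z was -0.564 ± 0.00570 (n = 3, limma adjusted p = 0.000292), beside -0.540 in the WT pair. *Casp6*, an apoptotic caspase, had NoDox ratios of 0.541, 0.556 and 0.615 and Dox ratios of 0.0556, 0.0556 and 0.0588, and its clones did not overlap between conditions. Mean z of *Casp6* was -0.514 ± 0.0377.

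Among the 8 genes with the most negative mean z, others ended at higher ratios or varied between clones. *Tchh*, trichohyalin of the hair follicle, kept ratios of 0.333, 0.458 and 0.4 with Dox from 0.968, 0.837 and 0.952 without it, a mean z of -0.522 ± 0.131. *Spag17*, a protein of the ciliary axoneme, had mean z of -0.515 ± 0.0555, and its Dox ratio in the WT pair is listed at 0. The uncharacterised gene *5730508B09Rik* had mean z of -0.510 ± 0.0473. *Alpk1*, a kinase that senses bacterial sugars, spread most, with z of -0.291, -0.804 and -0.485. Its Dox ratio of 0.0833 in 4C8E was far below the 0.500 of 4C7A, and the limma adjusted p of 0.00994 became 0.0550 without 4F9F (mean z -0.547). RefSeq genes on the same strand overlap *Alpk1*, *Spag17* and *Casp6*, so reads may be shared there.

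**Figure D2:**
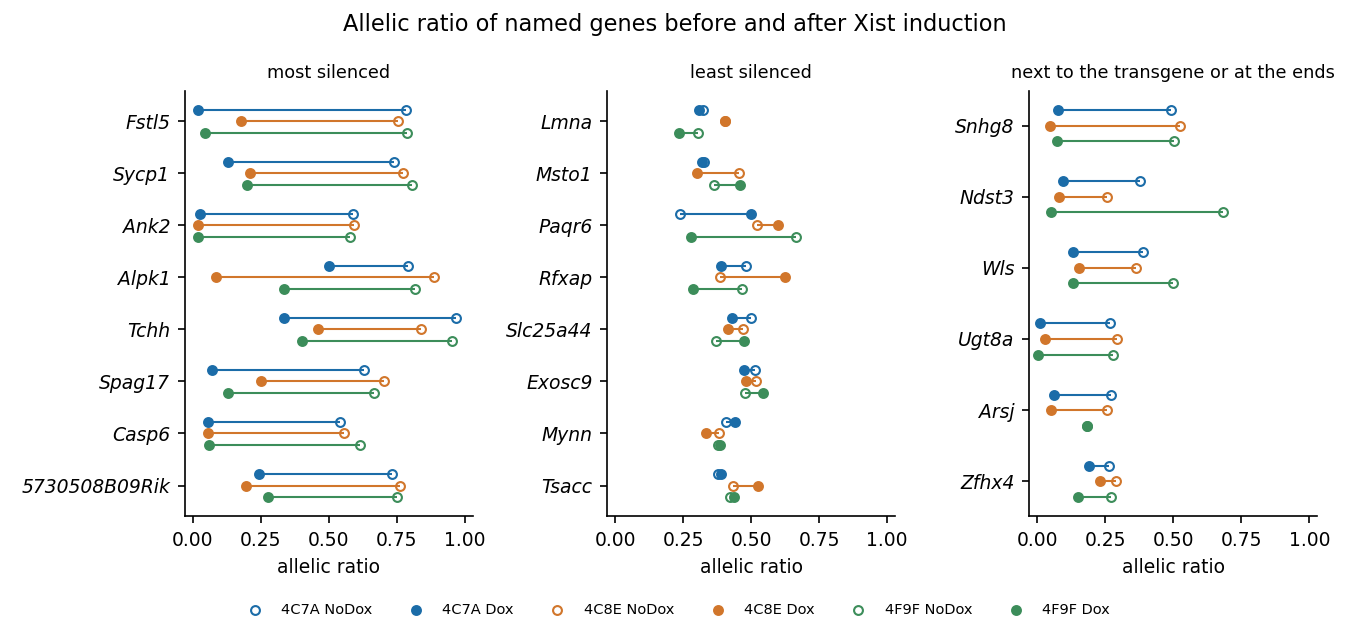
Allelic ratio (fraction, horizontal axis) of named genes in the 3 *Lbr* null clones, open circles without Dox and filled circles with Dox, joined by a line for each clone. In the most silenced genes all filled circles lie left of the open circles, in the least silenced genes they lie close together or on either side, and *Ugt8a* ends near 0.

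A small set of genes kept a ratio near that without Dox. Among genes with a mean NoDox ratio from 0.2 to 0.8, *Tsacc*, which encodes a co-chaperone of a testis kinase, had the highest z. Its ratios were 0.377, 0.432 and 0.423 without Dox and 0.390, 0.525 and 0.436 with it, so that each clone was slightly higher with Dox, by 0.0130, 0.0929 and 0.0128. Mean z of *Tsacc* was 0.0396 ± 0.0462 and did not pass the test (limma adjusted p = 0.171), the WT pair gave -0.0479, and the RefSeq gene *Gm37116* overlaps it on the same strand. *Lmna*, the gene of the A-type lamins that line the nucleus together with the B-type lamins, had NoDox ratios of 0.323, 0.404 and 0.304 and Dox ratios of 0.309, 0.403 and 0.234. The ranges of the conditions overlapped, mean z was -0.0281 ± 0.0374 (limma adjusted p = 0.253), and the WT pair gave -0.113. *Mynn*, a zinc finger protein, and *Exosc9*, a subunit of the RNA exosome, had mean z of -0.00186 ± 0.0421 and -0.00412 ± 0.0596. In both genes the clones lay on either side of 0.

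The remaining genes of this kind owed a mean near 0 to clones that moved in opposite directions. *Slc25a44*, a mitochondrial carrier, had z of -0.0686, -0.0550 and 0.104, and without 4F9F its mean of -0.0618 passed the test (limma adjusted p = 0.0383). *Rfxap*, a subunit of the factor that drives MHC class II genes, had z of -0.0926, 0.240 and -0.181, and without 4C8E its mean of -0.137 passed (limma adjusted p = 0.0261). Neither gene passed with all 3 clones. *Paqr6*, of the progestin receptor family, had z of 0.262, 0.0783 and -0.387, and *Msto1*, which acts on mitochondrial shape, had z of -0.00707, -0.152 and 0.0947.

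A few genes had weak or no silencing in each clone taken alone. The 8 genes with z above -0.05 in all 3 clones, picked out after their values were seen, were *Tsacc*, *Mynn*, *Exosc9*, *Arhgef38*, *Ythdf3*, a reader of m6A-modified RNA, *Smg5* of nonsense-mediated decay, the zinc finger gene *Mecom* and the non-coding gene *Peril*. *Ythdf3* went from 0.446, 0.464 and 0.466 to 0.417, 0.426 and 0.420, with mean z of -0.0377 ± 0.00860 (limma adjusted p = 0.0655). Its Dox values lay just below its NoDox values in each clone. *Peril* and *Mecom* started at mean ratios of 0.0556 and 0.110, which leaves little to lose. Of the 30 weak genes, 2 passed the test with all 3 clones: *Naa15*, of the N-terminal acetyltransferase (mean z -0.0456 ± 0.0139, limma adjusted p = 0.0441), and *Fubp1*, a nucleic acid-binding regulator (-0.0487 ± 0.0113, 0.0342). Both lost the call without any 1 of the clones, with adjusted p for *Naa15* of 0.205, 0.115 and 0.0997 and for *Fubp1* of 0.155, 0.114 and 0.0781 without 4C7A, 4C8E and 4F9F.

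Many of the weak genes lay close together on the chromosome. Between 88 and 89 Mb, an interval chosen after its values were seen, 11 of 24 genes were silenced by limma (89.9% over all genes) and 11 had weak or no silencing (5.8% over all genes), among them *Tsacc*, *Smg5*, *Paqr6*, *Slc25a44*, *Lmna* and *Msto1*. The median z there was -0.0681 ± 0.0204 (n = 3 clones), against -0.0880 in the WT pair. Only *1500004A13Rik* was highly silenced, with mean z of -0.242, beside a share of 47.8% over all genes. Its neighbours included *Arhgef2*, a RhoGEF of microtubules, at -0.134 and *Dap3* of the mitochondrial ribosome at -0.117, both silenced. Other weak genes lay towards the centromere, 1 of 10 genes at 0 to 10 Mb, 4 of 17 at 10 to 20 Mb and 7 of 39 at 30 to 40 Mb, beside the same 5.8%. The medians of these windows were -0.0839 ± 0.0155, -0.0811 ± 0.0101 and -0.119 ± 0.00682, beside -0.0777, -0.109 and -0.134 in the WT pair. By mean z, 0 genes of the windows from 0 to 20 Mb were highly silenced, beside 47.8% of all genes.

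Silencing was strongest around the transgene. In the 120-130 Mb window, which holds the integration site, the median z of 38 genes was -0.313 ± 0.00875 (n = 3 clones; WT pair -0.334), beside -0.194 over all genes. The share of genes silenced there, 36 of 38, was near the 89.9% over all genes. Genes within 5 Mb of the transgene (41 genes) started at a median ratio of 0.456 and ended at 0.124 ± 0.0171, a relative loss of 0.726 ± 0.0391, beside 0.767 in the WT pair. Genes over 50 Mb away (151 genes) had a relative loss of the ratio of 0.318 ± 0.00869. Median z was -0.276 ± 0.0110 within 10 Mb, -0.267 ± 0.00644 at 10 to 20 Mb, -0.248 ± 0.00962 at 20 to 30 Mb and -0.154 ± 0.00197 at 30 to 40 Mb. The decline with distance was not steady: the 24 genes at 40 to 50 Mb had a median of -0.267 ± 0.00579, and genes beyond 50 Mb one of -0.142 ± 0.00273. Across the 517 genes, which share their libraries and are not independent, the Spearman correlation of z with distance was 0.424 in 4C7A, 0.425 in 4C8E, 0.359 in 4F9F and 0.426 in the WT pair. The NoDox ratio had no such relation (mean Spearman correlation 0.00434 ± 0.0271).

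The listed genes nearest the integration site ended with low ratios, apart from *Arsj* in 4F9F. *Ugt8a* (chr3:125865343-125938550) has its midpoint 0.0898 Mb from the site and had NoDox ratios of 0.266, 0.293 and 0.277 and Dox ratios of 0.00853, 0.0271 and 0.00284. All Dox values were near 0 and far below the NoDox values, with mean z of -0.266 ± 0.00823 (limma adjusted p = 0.000330) and -0.285 in the WT pair. *Arsj*, an arylsulfatase gene 0.590 Mb away, went from 0.270 to 0.0606 in 4C7A and from 0.257 to 0.05 in 4C8E, but was 0.182 in both libraries of 4F9F. It missed the threshold with 3 clones (mean z -0.139, limma adjusted p = 0.0556) and passed it without 4F9F (-0.208, 0.00452). On the centromeric side the nearest listed genes were *Ndst3*, a heparan sulfate sulfotransferase, at 2.21 Mb and *Snhg8*, a host gene of a small nucleolar RNA, at 2.3 Mb. *Snhg8* went from 0.492, 0.526 and 0.502 to 0.0767, 0.0476 and 0.0708, with mean z of -0.441 ± 0.0326, and *Ndst3* had mean z of -0.364 ± 0.240, or -0.229 without 4F9F, and passed in either case.

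The arms on either side of the transgene, which differ in length, gave different correlations of z with distance. On the centromeric side 407 genes had a median z of -0.184 ± 0.00319 and a mean Spearman correlation with distance of 0.420 ± 0.0275. On the shorter telomeric side 110 genes had a median of -0.245 ± 0.00280, and the correlation was 0.138 ± 0.0842. By clone the telomeric correlation was 0.185 in 4C7A, 0.188 in 4C8E and 0.0406 in 4F9F. In the WT pair the correlation was 0.431 on the centromeric and 0.199 on the telomeric side. The correlations were not compared over an equal range of distance. Within 30 Mb of the transgene the order of the sides was the opposite, with -0.283 ± 0.00211 over 124 centromeric genes and -0.244 ± 0.00177 over 101 telomeric genes. The first and last listed genes of the chromosome were both silenced: *Zfhx4*, a zinc finger homeobox gene, by a mean z of -0.0855 ± 0.0329, and *Wls*, which carries Wnt proteins out of the cell, by -0.279 ± 0.0829.

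**Figure D3:**
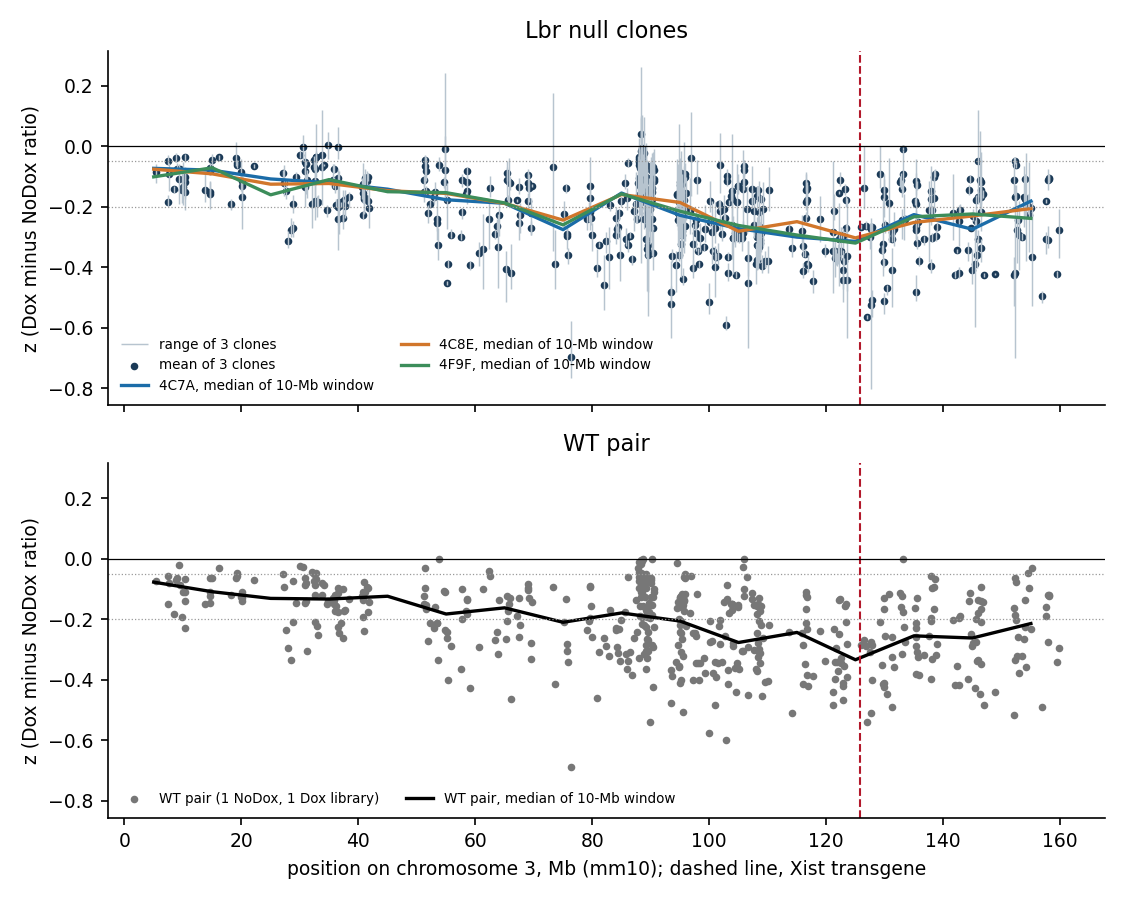
z (Dox minus NoDox ratio, vertical axis) along chromosome 3 (Mb, mm10, horizontal axis). The upper panel has points for the mean of the 3 clones, bars for their range and lines for the 10-Mb window medians of each clone. The lower panel has points for the genes in the WT pair and a line for its 10-Mb window medians. The dashed line marks the transgene and dotted lines the class limits. In the mean of the clones the median is deepest at 120 to 130 Mb (-0.313), and it is -0.0839 at 0 to 10 Mb and -0.0811 at 10 to 20 Mb.

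Silencing was uneven between neighbouring windows, and all clones shared the unevenness. The 70-80 Mb window, with 15 genes, had a median of -0.261 ± 0.0158 beside the 80-90 Mb window, with 76 genes, at -0.158 ± 0.00240. In the WT pair these windows were closer, at -0.210 and -0.180. The 80-90 Mb window held 12 of the 30 weak genes (15.8% of its genes, beside 5.8% over all genes). It also held 28 highly silenced genes (36.8%, beside 47.8%), and 59 of its genes were silenced by limma (77.6%, beside 89.9%). At 100 to 110 Mb the median of 68 genes was -0.272 ± 0.00958. There 65 genes (95.6%) were silenced, near the 89.9% of all genes, and 0 were weak by mean z, beside 5.8% of all genes. Adjacent listed genes resembled each other in part, with a Spearman correlation between their z values of 0.403 ± 0.0435 (n = 3 clones).

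The clones gave similar z for most genes, and a minority differed widely. Across genes of the same libraries the Spearman correlation of z was 0.799 between 4C7A and 4C8E, 0.747 between 4C7A and 4F9F, and 0.732 between 4C8E and 4F9F. The range of z over the 3 clones was under 0.1 for 345 genes and over 0.3 for 17. Whether z differed between clones could not be tested gene by gene, since each clone has 1 library per condition. A limma F test of the clone terms compares the ratio level over both conditions, and it called 0 genes (0%) at an adjusted p under 0.05, 29 at an unadjusted p under 0.05, and the lowest adjusted p was 0.407, for *Sohlh2*. *Sohlh2*, a germ-cell transcription factor, had NoDox ratios of 0.460, 0.636 and 0.467 and Dox ratios of 0 (as listed), 0.190 and 0.0189. Clone 4C8E was the highest in both conditions, while z was nearly the same in each clone, at -0.460, -0.446 and -0.448.

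The largest differences between clones fell on single genes. *Paqr6* had the widest range of z, 0.649, and NoDox ratios of 0.238, 0.522 and 0.667. *Nexn*, an actin-binding protein of muscle, had z of -0.129, -0.426 and -0.702, and its adjusted p of 0.0258 rose to 0.0653 without 4C8E and 0.0735 without 4F9F (mean z -0.415 and -0.277). *Gm20754* had z of -0.348, 0.176 and -0.0348. In the NoDox libraries *Ndst3* ran from 0.254 in 4C8E to 0.682 in 4F9F, although its Dox ratios were all low, at 0.0930, 0.0811 and 0.0488. *Kcnn3*, a calcium-activated potassium channel, had NoDox ratios of 0.552, 0.75 and 1 and Dox ratios of 0.3, 0.579 and 0.438. *Rap2b*, a Ras-like GTPase, had NoDox ratios of 0.455, 0.824 and 0.625. Both genes were lower with Dox in every clone and passed the test, with mean z of -0.328 ± 0.207 and -0.339 ± 0.124. Without 4F9F, where the NoDox ratio is listed at 1, mean z of *Kcnn3* was -0.211 (limma adjusted p = 0.0118). *Psmb4*, a proteasome subunit, was the only gene with mean z below -0.2 that did not pass: z was -0.368, 0.0739 and -0.382 (limma adjusted p = 0.105), and without 4C8E it passed (-0.375, 0.00255).

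Genes of the nuclear envelope, the structure LBR belongs to, were few on the chromosome. Of 3 listed genes 2 were silenced, and the median of their mean z was -0.139, beside -0.191 over all genes, of which 89.9% were silenced. *Nup210l*, of the pore membrane glycoprotein family, had mean z of -0.241 ± 0.0941, and *Kpna4*, an importin alpha, -0.139 ± 0.0471. *Lmna* was the member that did not pass.

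Lipid and sterol genes, grouped because LBR is also a sterol enzyme, were silenced in 15 of 16 listed cases (19 on the list), with a median of -0.285, beside 465 of 517 (89.9%) and -0.191 over all genes. Their median distance to the transgene was 20.2 Mb, against 31.8 Mb for all genes, and the clone medians of z were -0.263, -0.238 and -0.256. *Sgms2*, sphingomyelin synthase, had the most negative value, -0.409 ± 0.108. *Elovl6*, a fatty acid elongase, went from 0.403, 0.410 and 0.402 to 0.0577, 0.0531 and 0.0756 and was alike in every clone. In the mevalonate pathway that feeds sterol synthesis, *Pmvk* had mean z of -0.361 ± 0.122 and *Fdps* -0.185 ± 0.00892, beside -0.307 and -0.0696 in the WT pair.

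RNA-processing genes were silenced in 20 of 24 listed cases (26 on the list), near the 89.9% of all genes, with a median of -0.153 beside -0.191. *Rbm46*, an RNA-binding protein of germ cells, had the most negative mean z, -0.368 ± 0.104. *Mettl14*, a subunit of the m6A methyltransferase, had NoDox ratios of 0.392, 0.406 and 0.427 and Dox ratios of 0.133, 0.143 and 0.139, and the clones were nearly equal in each condition. Its mean z was -0.270 ± 0.0160, and the WT pair gave -0.149. *Rbm15*, which recruits that enzyme to RNA, had mean z of -0.183 ± 0.0316 and -0.133 in the WT pair. *Adar*, the RNA-editing deaminase, varied least, with z of -0.160, -0.160 and -0.158. *Exosc9*, *Smg5* (-0.0334 ± 0.0133), *Mex3a* (-0.0721 ± 0.0592) and *Ints12* of Integrator (-0.0918 ± 0.0732) did not pass, and *Ints12* passed without 4F9F (-0.132, limma adjusted p = 0.0160).

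Chromatin genes were silenced in 19 of 22 listed cases (23 on the list), beside 89.9% of all genes, and their median was -0.146, beside -0.191. *Lrif1*, a partner of HP1 and of SMCHD1, a protein of the inactive X chromosome, had NoDox ratios of 0.421, 0.472 and 0.356 and Dox ratios of 0.0548, 0.0423 and 0.0435. It was the most silenced of the list in the mean of the clones, at -0.370 ± 0.0590. *Tet2*, which oxidises methylated cytosine, had mean z of -0.241 ± 0.0130, the histone gene *H2afz* -0.174 ± 0.0183 and the H3K9 methyltransferase *Setdb1* -0.126 ± 0.00719. *H2afz* gave -0.0561 in the WT pair. *Mecom* (-0.0295 ± 0.0128), the remodeller subunit *Actl6a* (-0.0350 ± 0.0246) and the Polycomb gene *Phc3* (-0.0532 ± 0.0314) did not pass, although *Phc3* passed without 4F9F (-0.0708, limma adjusted p = 0.0293).

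Translation genes were silenced in 12 of 14 listed cases (18 on the list), against a background of 89.9%, with a median of -0.117 against -0.191 over all genes. *Sars*, seryl-tRNA synthetase, and *Eif5a2*, a translation factor, had mean z of -0.272 ± 0.0309 and -0.271 ± 0.0275. *Eif4e*, the cap-binding protein, had a smaller value of -0.0914 ± 0.0133. The members that did not pass were the mitochondrial ribosome genes *Mrps28* (-0.0405 ± 0.0146) and *Mrpl47* (-0.0372 ± 0.0959), of which *Mrpl47* passed without 4C7A (-0.0923, limma adjusted p = 0.0339). The mitochondria list had 5 of 7 genes listed, 4 of them silenced against the same background, and a median of -0.0774, from *Slc25a24*, a carrier of ATP and phosphate (-0.208 ± 0.111), to the complex I gene *Ndufc1*, which did not pass (-0.0647 ± 0.0522).

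Cell cycle genes were silenced in 13 of 14 listed cases, where 89.9% of all genes were, with a median of -0.137 (all genes -0.191) at a median distance of 58.3 Mb from the transgene. *Cdc14a*, a phosphatase that lies 9.46 Mb from it, had the most negative mean z, -0.357 ± 0.0155. *Ccna2*, cyclin A2, had NoDox ratios of 0.524, 0.523 and 0.485 and Dox ratios of 0.447, 0.399 and 0.366, lower in each clone. *E2f5*, a transcription factor of the E2F family, had the least negative mean z, -0.0811 ± 0.0101, and missed the threshold without 4C8E (-0.0757, limma adjusted p = 0.0538). *Dclre1b*, a telomere nuclease, did not pass (-0.175 ± 0.186). Its z was -0.280 in 4C7A, -0.286 in 4C8E and 0.0398 in 4F9F, and it passed without 4F9F (-0.283, 0.00382).

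Signalling and developmental genes were silenced in 19 of 21 listed cases (31 on the list), the share found over all genes being 89.9%, with a median of -0.263 (all genes -0.191) and a median distance of 22.7 Mb. By clone the median was -0.248 in 4C7A, -0.196 in 4C8E and -0.267 in 4F9F, so that 4C8E lay close to its median over all genes of -0.192. *Bmpr1b* had NoDox ratios of 0.467, 0.458 and 0.459 and Dox ratios of 0.0298, 0.0446 and 0.0297. It was close to fully silenced in every clone, with mean z of -0.427 ± 0.0118. *Notch2*, a Notch receptor, had mean z of -0.346 ± 0.0128 and *Lef1*, a transcription factor of the Wnt pathway, -0.284 ± 0.0140. *Pik3ca*, the catalytic subunit of PI3-kinase, had the least negative mean z, -0.0452 ± 0.0194, and did not pass. Of 8 fibroblast markers, included because feeders were present, 2 were listed and both were silenced, with a median of -0.292: *Col11a1*, a collagen (-0.336 ± 0.0430), and *Cyr61*, a matricellular protein (-0.248 ± 0.0523). The tables hold ratios and no levels of these markers, and the part of feeder RNA in any ratio was not tested.

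**Figure D4:**
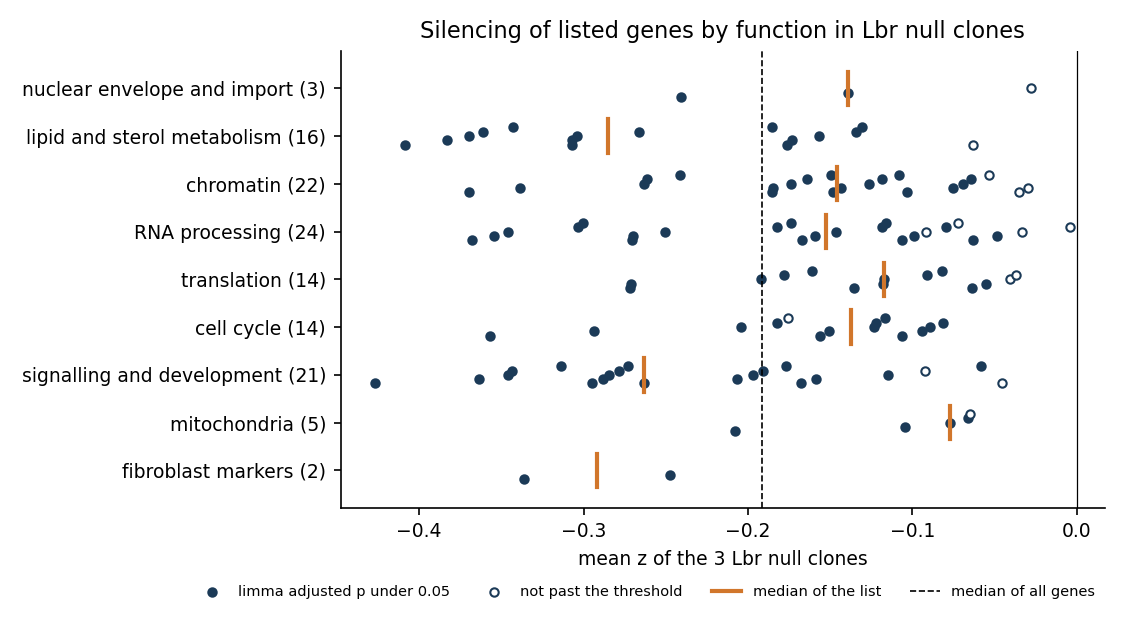
Mean z of the 3 clones (horizontal axis, Dox minus NoDox ratio) for each listed gene of the 9 gene lists; filled points passed limma, open points did not, orange marks show the list medians and the dashed line the median of all 517 genes. Lipid and signalling genes have medians of -0.285 and -0.263, and mitochondrial genes one of -0.0774.

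Genes with low expression were silenced the most. The deposited expression value (RPKM, a read count scaled to gene length and library size) of the other 3-day table was available for 498 of the 517 genes, and the library behind it is not named. In groups of 166 genes, median z was -0.253 ± 0.0180 at the lowest expression, -0.197 ± 0.00461 in the middle and -0.147 ± 0.0114 at the highest, and the order was the same in each clone. The WT pair gave -0.259, -0.196 and -0.147. Highly silenced genes numbered 107, 77 and 54 of 166, beside 47.8% of all 517 genes. Similar numbers passed the test (152, 150 and 151, or 91.6%, 90.4% and 91.0%), near the 89.9% of all genes. Genes of low expression also varied more between clones, with a median SD of z of 0.0541, 0.0329 and 0.0222.

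The starting ratio is a term of z, so groups formed by it differ in z in part by construction. The 30 genes with a NoDox ratio of at least 0.6 had a median z of -0.335 ± 0.0590, and the 88 genes below 0.4 one of -0.172 ± 0.00352. As a relative loss the order changed, with 0.495 ± 0.0537 in the former and 0.577 ± 0.0351 in the latter. The least relative loss, 0.389 ± 0.0151, was in the 256 genes from 0.4 to 0.5. *Gm6639* and *Gpr89*, picked out after their values were seen, were the only genes with a Dox ratio above 0.5 in every clone. *Gm6639* went from 0.767, 0.787 and 0.808 to 0.707, 0.655 and 0.668 and was silenced (limma adjusted p = 0.0107), a call lost without 4C8E (mean z -0.0999, adjusted p = 0.0512) and with robust eBayes with trend (adjusted p = 0.193). *Gpr89* did not pass.

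The WT pair resembled the clones gene by gene. Its z lay within the range of the 3 clones for 272 genes, below all of them for 142 and above all of them for 103. It was within 0.1 of the mean of the clones for 453 genes (87.6%), and the median over genes of WT pair z minus mean clone z was -0.00641. In the WT pair all 517 genes had a lower ratio with Dox, with z of at most -0.00122. Having no replicate, the pair was compared without a test. It is titled mRNA, so its RNA fraction may differ from that of the clones.

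Several genes stood apart from the WT pair while the clones kept together. *Sohlh2* had mean z of -0.451 ± 0.00784 in the clones and -0.242 in the pair. *Anp32e*, a chaperone that removes histone H2A.Z, had z of -0.235, -0.313 and -0.241 in the clones and -0.05 in the pair. *Bcl9*, a Wnt coactivator (-0.405 ± 0.0299 against -0.246), and *Tyw3*, a tRNA-modifying enzyme (-0.199 ± 0.0347 against -0.0475), also had lower values in the clones. In the other direction *Slc7a14*, an amino acid transporter, had -0.112 ± 0.0534 in the clones and -0.305 in the pair. *Glt28d2*, a glycosyltransferase gene, had -0.171 ± 0.0367 against -0.364, *Col11a1* -0.336 against -0.512, and *Peril* 0.00344 ± 0.0446 against -0.14. The NoDox ratio of the pair, a term of its z, lay below every clone in the first 4 of these genes and above every clone in the last 4. Mean clone z minus that of the WT libraries in the other 3-day table, described next, was small for *Glt28d2* (-0.0230), *Col11a1* (-0.0334) and *Bcl9* (-0.0491). It was larger for *Sohlh2* (-0.143), *Anp32e* (-0.153), *Tyw3* (-0.0820) and *Slc7a14* (0.161). The limma interaction called none of them, and *Peril* has no value there.

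Against the 3 NoDox and 3 Dox WT libraries of the other 3-day table, a separate experiment on the same line, the *Lbr* null clones were silenced at least as far. Over the 498 shared genes the library medians of z were -0.195 ± 0.00370 in the clones and -0.162 ± 0.0186 in these WT libraries (-0.169, -0.176 and -0.141), each taken against the mean NoDox ratio of its line. The clones lay below all 3 WT libraries, by a difference of -0.0333, and an exact two-sided permutation test gave p = 0.10, the smallest that 3 against 3 allow. The WT pair of the *Lbr* table, at -0.1998 on these genes, was lower than the clones, so genotype and experiment cannot be told apart. All 3 clones were below all 3 WT libraries for 172 genes (34.5%) and above them for 18 (3.61%). The WT pair was itself below the 3 WT libraries for 127 of the 172, against 283 of all 498 genes, and above them for 9 of the 18, against 49 of all genes. These counts share the same 3 WT libraries. Near the transgene the lines were closest, with a difference of -0.00718 within 10 Mb (exact p = 0.8) and from -0.0303 to -0.0624 in the bins farther away (exact p = 0.10 each). In every bin the median of the WT pair was also below the mean of the WT libraries. It was -0.286 against -0.268 within 10 Mb and -0.138 against -0.110 beyond 50 Mb.

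No gene was called as silenced differently on the scale of the ratio. The limma interaction of Dox and line over 12 libraries called 0 of 498 genes (0%), with 69 lower and 2 higher in the clones at an unadjusted p under 0.05 and a lowest adjusted p of 0.147. With each library centred on its median, which removes a chromosome-wide shift, it also called 0, with 21 lower and 24 higher unadjusted. With limma on the logit of the ratio, which spreads out values near 0, 11 genes were called, all more silenced in the clones, with adjusted p from 0.0167 to 0.0462. *Sec24d*, a COPII coat protein of the secretory pathway, had Dox ratios of 0.0678, 0.0705 and 0.0501 in the clones and 0.213, 0.198 and 0.171 in the WT libraries. The WT pair, at 0.0503, lay with the clones. *Casp6* had WT Dox ratios of 0.111, 0.160 and 0.167, above every clone, and 0.0541 in the WT pair. *Fam198b*, a Golgi-associated protein, had 0.0587, 0.0224 and 0.0403 in the clones, 0.144, 0.177 and 0.165 in the WT libraries and 0.0480 in the pair. The others included *Snx7*, *Slc30a7*, *Dennd2c*, *Tmem144*, *F3*, *Pdlim5* and *Depdc1a*, all picked out after their values were seen. For all 11 called genes the Dox ratio of the WT pair, with *Lbr* intact, was also below all 3 WT libraries.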

How the data were processed

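ChrRNA-seq measures RNA bound to chromatin. The authors removed rRNA reads with Bowtie2 2.3.2, aligned with STAR 2.4.2a to an N-masked mm10 genome, split reads by allele and used featureCounts to count them per gene and strand. Each deposited ratio is a fraction from 0 to 1, formed within its library. The deposited RPKM is the authors' measure of expression from a library that is not named. The authors' columns of differences (Dox minus NoDox in WT and in *Lbr* null cells) in the *Lbr* table, and of means and p-values between lines in the other 3-day table, were not used. Read counts were not used here, so depth is unknown and no counting intervals are given.

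Of 517 genes, 487 matched RefSeq (GRCm38.p6) by symbol and 30 by synonym, and 70 have a same-strand neighbour that may share reads. Positions count from 1. For 24 genes the listed length exceeds the listed span.

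Ratios were fitted with limma 3.58.1 in R 4.3.3 (lmFit, eBayes, two-sided, adjusted p under 0.05 over all genes), with clone as a block for Dox against NoDox and an F test of the clone terms. The interaction fit had 12 libraries, 498 genes and no block. The fit was also run on simulated data, and no result here rests on that run. Medians were compared by exact permutation tests. For the logit, ratios were kept between 0.01 and 0.99. Distance is that between a gene's midpoint and the position that the methods give for the transgene. Other steps used scipy 1.17.1, pandas 2.3.3, numpy 2.4.6 and matplotlib 3.10.9 in Python 3.11.15. Missing ratios and identical library pairs numbered 0. Pairing rests on the labels: the deviations of a clone's NoDox and Dox ratios from the clone means correlated across genes at 0.0283, -0.00640 and -0.113.

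Named genes are the 8 most negative mean z past the threshold, the 8 highest mean z at NoDox ratios from 0.2 to 0.8, the 5 with the widest range of z and of NoDox ratio, the 4 in each direction farthest from the WT pair with clones within 0.1, the 2 nearest the transgene on either side, the first and last listed gene, up to 5 called interactions in each direction, and members of 9 gene lists, the strongest and weakest first. The members and lists were chosen with earlier results of these data known. Other settings tried were leaving out each clone, no block, the logit, a NoDox filter, robust eBayes with trend, a minimum change, the WT pair as a further pair, centring and other distance measures.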

Additional observations from a re-analysis of the deposited data

Results flagged for a closer look

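*Tsacc*, which encodes a co-chaperone of a testis kinase, had mean z of 0.0396 in the *Lbr* null clones. Clone 4C8E, at 0.0929, carried most of this mean, with 0.0130 in 4C7A and 0.0128 in 4F9F. The gene was singled out because all 3 clones were above 0 while the WT pair, a single measurement, was below 0 at -0.0479. The difference was not tested.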

How the results depend on the processing

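The count of silenced genes, 465, stayed between 398 and 489 under all other settings: 478 without the clone block, 410 to 443 leaving out a clone, 460 on the logit, 460 of 506 genes with NoDox ratios from 0.2 to 0.8, 465 by robust eBayes with trend, 409 against a minimum change of 0.05, 489 with the WT pair as a further pair, and 398 of 447 genes without a same-strand neighbour. The last, like the distance to RefSeq midpoints, was chosen after seeing the data. Genes silenced differently in *Lbr* null and WT cells numbered 11 on the logit and 0 otherwise (limma; 45 to 78 unadjusted), and the cause was not tested. Genes with weak or no silencing numbered 86 at a limit of -0.1 and 8 when every clone had to pass, by construction. The Spearman correlation with distance was -0.442 for relative loss, whose sign is opposite to z by construction. The difference between clones and WT was 0.00486 against the WT pair, the cause not being tested. Leaving out a clone changed the sign of mean z for *Mynn* (-0.0203 to 0.0211), *Exosc9* (-0.0385 to 0.0147), *Slc25a44* (-0.0618 to 0.0247), *Rfxap* (-0.137 to 0.0739), *Paqr6* (-0.154 to 0.170), *Msto1* (-0.0796 to 0.0438), *Gm20754* (-0.191 to 0.0706), *Gpr89* (-0.117 to 0.0217) and *Peril* (-0.0176 to 0.0268), and *Peril* was at -0.0324 with the WT pair added. None of these 9 passed the test with 3 clones. Of 169 named genes, 124 kept direction and call in every setting tallied for them, 22 lost the call and 16 gained it in at least 1. Those settings were leaving out each clone, no block, the NoDox filter, robust eBayes with trend, the WT pair and no same-strand neighbour. The logit and the minimum change were not part of this tally. Losses and gains came mostly when a clone was left out or the WT pair was added. Genes with a clone difference numbered 0 in every setting (limma; 24 to 38 unadjusted). Central z was -0.213 as a mean over genes and lay between -0.197 and -0.193 as a median, each averaged over clones. The correlation of z with distance, averaged over clones, lay between 0.371 and 0.425. Depth per gene is unknown, 3 clones limit the exact tests, and the WT pair has no replicate.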
